A study of Mus musculus with 2 samples.

Results

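The G1 cyclins and their kinases were examined as 9 genes named by symbol, namely the D-type cyclins Ccnd1, Ccnd2 and Ccnd3, the E-type cyclins Ccne1 and Ccne2, the kinases Cdk2, Cdk4 and Cdk6, and the phosphatase Cdc25a. All probe sets annotated to these symbols were taken, 27 in number. The whole table covers 18194 genes by probe sets that name a single gene. The mRNA came from NIH3T3, an immortal fibroblast line from mouse embryos grown in medium with serum, infected with a retrovirus that expresses a short hairpin RNA. One culture carried a hairpin against CCR4b (CCR4b RNAi), also called CNOT6L, a deadenylase subunit of the CCR4-NOT complex that shortens poly(A) tails, and the other a control hairpin (control RNAi). Each group held 1 array, 2 in all, so no value has a replicate error, no test across arrays was possible, and "higher" or "lower" says only how these arrays compare.

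In mammalian cells, D-type cyclins are made in response to growth factors and bind CDK4 or CDK6. These kinases begin the phosphorylation of the retinoblastoma protein, which frees E2F transcription factors. E2F factors drive the genes of cyclin E, CDC25A and DNA synthesis. Cyclin E binds CDK2, CDC25A removes the inhibitory phosphates from that kinase, and the cell enters S phase. Fibroblasts deprived of serum stop in G1 with little cyclin D1.

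Signals were used in the arbitrary units of the deposited table. A probe set was called measured if its brighter array reached a floor of 8.07 units, the 50th percentile of the pooled values of the 2 arrays, because the table holds no detection calls. Values under the floor were raised to it, and the log2 ratio is CCR4b RNAi over control RNAi. Each gene was represented by its brightest probe set and was measured where that one was. By this rule 8 of the 9 genes were measured, all above the floor on both arrays, on 22 of the 27 probe sets. Probe sets whose names end in _x_at or _s_at may also bind other transcripts. With 1 array per group, the only spread at hand is that between probe sets: from the brightest pair of each of 4550 genes, a probe set had a robust SD of 0.30 in its log2 ratio.

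As a whole the pair of arrays had like scales, with upper quartiles of 35.8 units (CCR4b RNAi) and 35.9 units (control RNAi). Over the 11915 measured genes the median log2 ratio was -0.070. Probe sets differed by brightness, with medians from 0.17 in the second dimmest of 10 signal classes to -0.18 in the brightest. Cnot6l, the targeted gene, read 43.0 units in the CCR4b RNAi culture and 102 units in the control on its brightest probe set, 2.38-fold lower, and was lower on all 4 of its probe sets. Of these, 2 were above the floor on both arrays. The others were below it in the CCR4b RNAi culture, so their ratios are bounds. All 9 fibroblast markers examined, among them Col1a1, Col1a2 and Vim, were above the floor on both arrays. Of markers of other cell types, 1 of 5 epithelial, 3 of 5 leukocyte and macrophage, and 0 of 4 endothelial genes were measured, and Epcam, the epithelial one, read 29.5 units (CCR4b RNAi) and 19.4 units (control RNAi). The summed signals of the measured leukocyte and macrophage genes were 36.0 units (CCR4b RNAi) and 56.0 units (control RNAi). The 3 measured were Cd68, Adgre1 and Csf1r. Cd68 read 9.42 units (CCR4b RNAi) and 24.0 units (control RNAi), 2.55-fold lower. Adgre1 read 9.13 units (CCR4b RNAi) and 13.7 units (control RNAi), and Csf1r 17.5 units (CCR4b RNAi) and 18.4 units (control RNAi) on its brightest probe set. No probe set of Ptprc, which encodes the pan-leukocyte antigen CD45, or of Itgam reached the floor. The 3'/5' signal ratio of Actb, a sign of RNA integrity, was 1.46 (CCR4b RNAi) and 1.35 (control RNAi), and that of Gapdh was 0.819 (CCR4b RNAi) and 0.824 (control RNAi). The part of these differences in the results was not tested.

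The promoters of 4 members are shown because they bear on how Cdk4 and Cdk6, and the E2F-driven Cdc25a and Ccne1, are known to be controlled. Each is the 300-base window from 250 bases before to 50 bases after the RefSeq start of the gene in GRCm38.p6, written 5' to 3' on the gene's strand. The windows are chr10:127063285-127063584 (plus strand) for Cdk4, chr5:3343643-3343942 (plus) for Cdk6, chr9:109875329-109875628 (plus) for Cdc25a and chr7:38107441-38107740 (minus) for Ccne1. Capitals mark the E-box CACGTG, the word that MYC and related factors bind, and the E2F words TTTCCCGC, TTTGGCGC, TTTCGCGC and TTTGCCGC, each searched on both strands. No marked word overlapped another.
Cdk4: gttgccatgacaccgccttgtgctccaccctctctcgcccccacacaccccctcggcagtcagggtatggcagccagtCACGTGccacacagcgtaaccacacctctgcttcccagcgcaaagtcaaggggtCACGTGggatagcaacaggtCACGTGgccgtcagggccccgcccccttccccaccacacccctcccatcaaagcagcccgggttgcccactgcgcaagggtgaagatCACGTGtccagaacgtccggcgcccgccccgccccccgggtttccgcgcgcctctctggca
Cdk6: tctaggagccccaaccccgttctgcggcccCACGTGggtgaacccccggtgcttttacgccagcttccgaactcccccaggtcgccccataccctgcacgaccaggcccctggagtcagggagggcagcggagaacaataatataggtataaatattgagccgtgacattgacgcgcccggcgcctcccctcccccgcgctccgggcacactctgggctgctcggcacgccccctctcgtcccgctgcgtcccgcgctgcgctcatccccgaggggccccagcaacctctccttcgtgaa
Cdc25a: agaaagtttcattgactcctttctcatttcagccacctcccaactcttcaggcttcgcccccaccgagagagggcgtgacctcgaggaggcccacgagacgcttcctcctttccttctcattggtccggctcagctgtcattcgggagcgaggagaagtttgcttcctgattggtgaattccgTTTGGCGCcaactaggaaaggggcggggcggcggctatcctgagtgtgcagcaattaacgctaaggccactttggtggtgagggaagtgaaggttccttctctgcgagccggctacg
Ccne1: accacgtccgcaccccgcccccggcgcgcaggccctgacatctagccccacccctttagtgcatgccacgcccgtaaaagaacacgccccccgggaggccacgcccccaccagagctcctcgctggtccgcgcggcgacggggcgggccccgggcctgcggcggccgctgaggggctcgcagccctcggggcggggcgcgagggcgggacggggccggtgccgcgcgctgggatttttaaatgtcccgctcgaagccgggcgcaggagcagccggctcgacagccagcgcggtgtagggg

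The table held windows for 6 of the 9 members, 7 windows in all, and the other windows belonged to Ccnd3, with 2, and Cdk2. The Cdk4 window held 4 E-boxes. Of 32851 promoter windows of this length, 7.15% held at least 1 E-box and 8 windows held at least 4. The E-boxes of Cdk4 began 172, 118, 98 and 11 bases before the annotated start. The Cdk6 window held 1 E-box, 220 bases before the start. An E2F word was present in the Cdc25a window, 67 bases before the start, and in the Cdk2 window, 140 bases before it, and in 2.26% of all windows. The windows of Ccne1 and Ccnd3 held none of these letters, which says nothing of whether a factor acts on them. These are matches of letters, not shown binding sites.

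Across the members, most values were lower in the CCR4b RNAi culture, by less than 2-fold. Of the 8 measured genes, 7 had a log2 ratio below 0, where 56.0% of all measured genes did. The member median was -0.52 (1.43-fold lower), beside -0.070 over all measured genes. Ccne1, Ccne2, Cdk4 and Cdc25a were at least 1.5-fold lower, 4 of 8, where 14.6% of all measured genes were. No member was as much higher, where 11.3% of all genes were, and 0 were 2-fold lower, where 4.48% were. By probe set, 20 of 22 had a ratio below 0. Of these, 6 were of Ccnd2 and 1 was of Ccnd3, on a value under the floor in the CCR4b RNAi culture (-0.026). The share of all measured probe sets below 0 was not computed. The median was itself below 0 over all measured probe sets (-0.043) and in the brightest class (-0.18). Of the 22, 6 were at least 1.5-fold lower, against 14.4% of all measured probe sets, and 0 were 1.5-fold higher, against 12.7%. Since the RNA is of whole cultures, fewer cells expressing a gene and less of its mRNA per cell cannot be told apart.

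**Figure D1:**
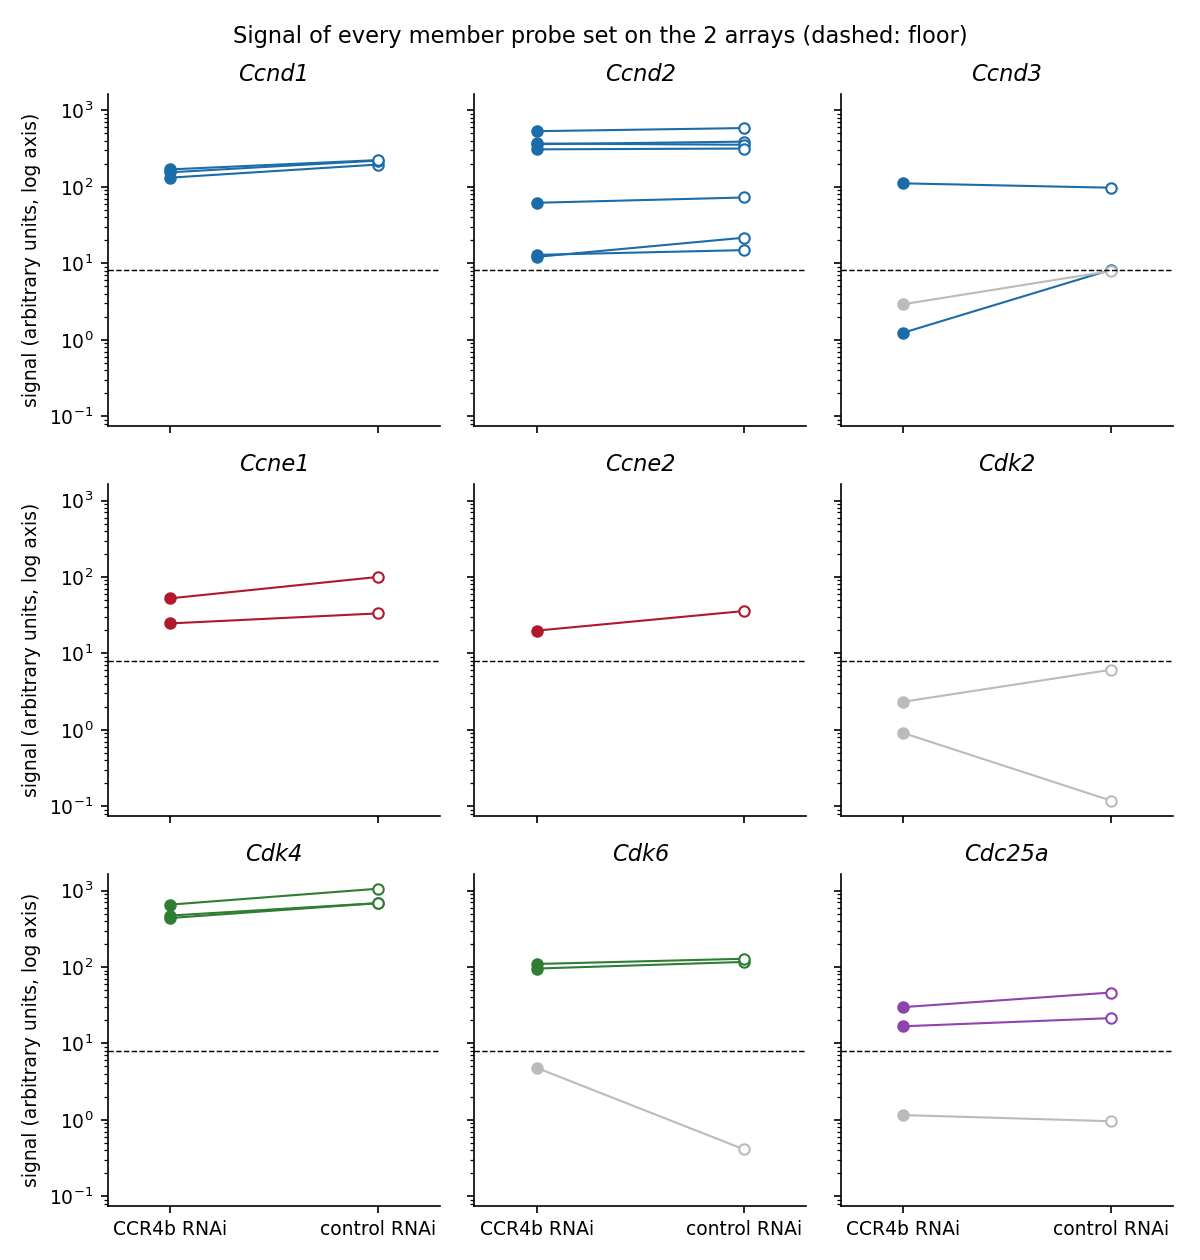
Signal of all 27 member probe sets (arbitrary units, log axis) in the CCR4b RNAi culture (left, filled) and the control RNAi culture (right, open), 1 panel per gene and 1 line per probe set. The dashed line is the floor of 8.07 units and grey lines are probe sets below it on both arrays, which include both probe sets of Cdk2.

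Of the 3 D-type cyclins, Ccnd1 had the lowest representative ratio and Ccnd3 the highest. Ccnd1 encodes cyclin D1, the member most closely tied to serum and adhesion signals in fibroblasts. Its probe set 1417419_at read 132 units in the CCR4b RNAi culture and 196 units in the control, 1.48-fold lower (log2 ratio -0.57). The next, 1417420_at, read 155 units (CCR4b RNAi) and 221 units (control RNAi), 1.42-fold lower. The brightest, 1448698_at, read 169 units (CCR4b RNAi) and 224 units (control RNAi), 1.32-fold lower. All 3 probe sets of Ccnd1 were thus lower by similar amounts, and none reached 1.5-fold. They lay below the median of probe sets of like signal by 0.25 to 0.41 log2 units, within the robust SD of that class, 0.43. Of 1144 genes with exactly 3 probe sets that cleared the floor in both cultures, 83 (7.26%) had every one at or below the least negative Ccnd1 ratio, -0.40, a cut taken from the Ccnd1 value itself.

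Ccnd2 encodes cyclin D2, which can stand in for cyclin D1 in binding CDK4 and CDK6. It is covered by 7 probe sets. The brightest, 1416122_at, read 536 units in the CCR4b RNAi culture and 589 units in the control. This is 1.10-fold lower (log2 ratio -0.14), and the sign turned with quantile normalization and with a loess correction for brightness (0.040 and 0.037). Probe sets 1430127_a_at (0.084 and 0.069) and 1455956_x_at (0.16 and 0.15) were also above 0 in these settings. The 5 probe sets of Ccnd2 above the upper quartile in the control had log2 ratios between -0.23 and 0.054, on both sides of 0. The dim 1416124_at stood apart, at 12.1 units (CCR4b RNAi) and 21.7 units (control RNAi), 1.78-fold lower, while 1416123_at, also dim, read 12.9 units (CCR4b RNAi) and 14.9 units (control RNAi), 1.15-fold lower. Ccnd2 therefore has 1 of 7 probe sets past 1.5-fold, and that one is among its 2 dimmest, where probe sets of like signal had a robust SD of 0.62. The median over probe sets was -0.51 for Ccnd1 and -0.14 for Ccnd2, and the range of the Ccnd1 ratios lay inside that of Ccnd2.

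Ccnd3, which encodes cyclin D3, was the only measured member whose representative probe set was higher, apart from Ccnd2 after quantile normalization or the loess correction. Probe set 1415907_at read 111 units in the CCR4b RNAi culture and 97.6 units in the control, 1.14-fold higher (log2 ratio 0.19). The ratio was above 0 in all 8 alternative settings, between 0.082 and 0.32, and lay within the class robust SD of 0.45. The remaining probe sets were dim: 1438805_at read 1.23 units (CCR4b RNAi) and 8.22 units (control RNAi), so that the floored ratio is only a bound of at least 1.02-fold lower, and 1444323_at read 2.91 units (CCR4b RNAi) and 7.93 units (control RNAi), below the floor on both arrays. The dim probe sets thus go the other way from the bright one, on values at or under the floor.

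Both E-type cyclins, the partners of CDK2, were lower. Ccne1 encodes cyclin E1. Its probe set 1441910_x_at read 52.5 units in the CCR4b RNAi culture and 100.1 units in the control, 1.90-fold lower (log2 ratio -0.93). The second, 1416492_at, read 24.7 units (CCR4b RNAi) and 33.4 units (control RNAi), 1.35-fold lower (-0.44). Both were lower, but past 1.5-fold only on the probe set that may bind other transcripts. Without probe sets of that kind the gene was not past 1.5-fold. The 1.90-fold difference was below the median of its signal class by 0.83 log2 units, more than the class robust SD of 0.48, and 5.90% of probe sets in the class were lower still.

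Ccne2, which encodes cyclin E2, has 1 probe set. It read 19.8 units in the CCR4b RNAi culture and 35.9 units in the control, 1.81-fold lower (log2 ratio -0.85). That is 0.90 log2 units below the median of its class, whose robust SD was 0.57, and 7.29% of the class were lower. With the floor raised to the 75th percentile, 35.8 units, the control value lies on the floor and no ratio can be read (-0.00092). The 3 measured probe sets of the E-type cyclins had a median log2 ratio of -0.85, where the 12 of the D-type cyclins had -0.17. Of those 12, 7 were of Ccnd2, while the 3 of Ccnd1 lay between -0.57 and -0.40, beside -0.44 for Ccne1 probe set 1416492_at. Probe sets are no replicates, so a difference between E-type and D-type cyclins was not tested.

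Among the kinases, Cdk4 was lower on every probe set, Cdk6 by little, and Cdk2 could not be measured. Cdk4 encodes the kinase that pairs with D-type cyclins in most cell types. Probe set 1422441_x_at read 656 units in the CCR4b RNAi culture and 1058 units in the control, 1.61-fold lower (log2 ratio -0.69). Probe set 1422439_a_at read 438 units (CCR4b RNAi) and 685 units (control RNAi), 1.56-fold lower (-0.65). Probe set 1422440_at read 471 units (CCR4b RNAi) and 686 units (control RNAi), 1.45-fold lower (-0.54). The 3 probe sets were lower by much the same amount and lie in the brightest class, whose median ratio was itself -0.18. Against that median, Cdk4 was lower by 0.36 to 0.51 log2 units, beside a class robust SD of 0.37. Of the 1144 genes read by exactly 3 probe sets, 50 (4.37%) had every ratio at or below -0.54, a cut taken from Cdk4 itself. The gene lost its place past 1.5-fold with quantile normalization (-0.55), with the loess correction (-0.53) and without _x_at and _s_at probe sets (-0.54).

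Cdk6 encodes the close relative of CDK4 that also binds D-type cyclins. Probe set 1455287_at read 110 units in the CCR4b RNAi culture and 128 units in the control, 1.17-fold lower (log2 ratio -0.23). Probe set 1435338_at read 95.5 units (CCR4b RNAi) and 117 units (control RNAi), 1.22-fold lower (-0.29). Both ratios were small and within 0.16 log2 units of their class median. The third probe set, 1460291_at, was below the floor on both arrays, at 4.81 units (CCR4b RNAi) and 0.411 units (control RNAi). The ranges of the Cdk4 and Cdk6 ratios, from 3 and 2 probe sets, did not overlap, and how often this holds for other genes was not computed. Their medians over probe sets differed by -0.39 log2 units. The robust SD of a difference between 2 single probe sets was 0.42, and that of a difference between medians was not computed. The probe sets of a gene are no replicates of a culture, so the difference between Cdk4 and Cdk6 was not tested. Cdk2 encodes the partner kinase of cyclin E. Its probe set 1416873_a_at read 2.33 units (CCR4b RNAi) and 6.10 units (control RNAi), and 1447617_at read 0.911 units (CCR4b RNAi) and 0.119 units (control RNAi). All 4 values were under the floor and the probe sets pointed in opposite directions, so no fold is given for Cdk2.

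Cdc25a encodes the phosphatase that activates CDK2 at the start of S phase and is itself driven by E2F and MYC. Probe set 1417131_at read 29.9 units in the CCR4b RNAi culture and 46.4 units in the control, 1.55-fold lower (log2 ratio -0.63). Probe set 1417132_at read 16.8 units (CCR4b RNAi) and 21.5 units (control RNAi), 1.28-fold lower (-0.35). Both were lower, and the first lay 0.62 log2 units below its class median, beyond the class robust SD of 0.53. Taken as the median over both probe sets, the ratio was -0.49 and no longer past 1.5-fold. The third, 1445995_at, was below the floor at 1.16 units (CCR4b RNAi) and 0.961 units (control RNAi).

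**Figure D2:**
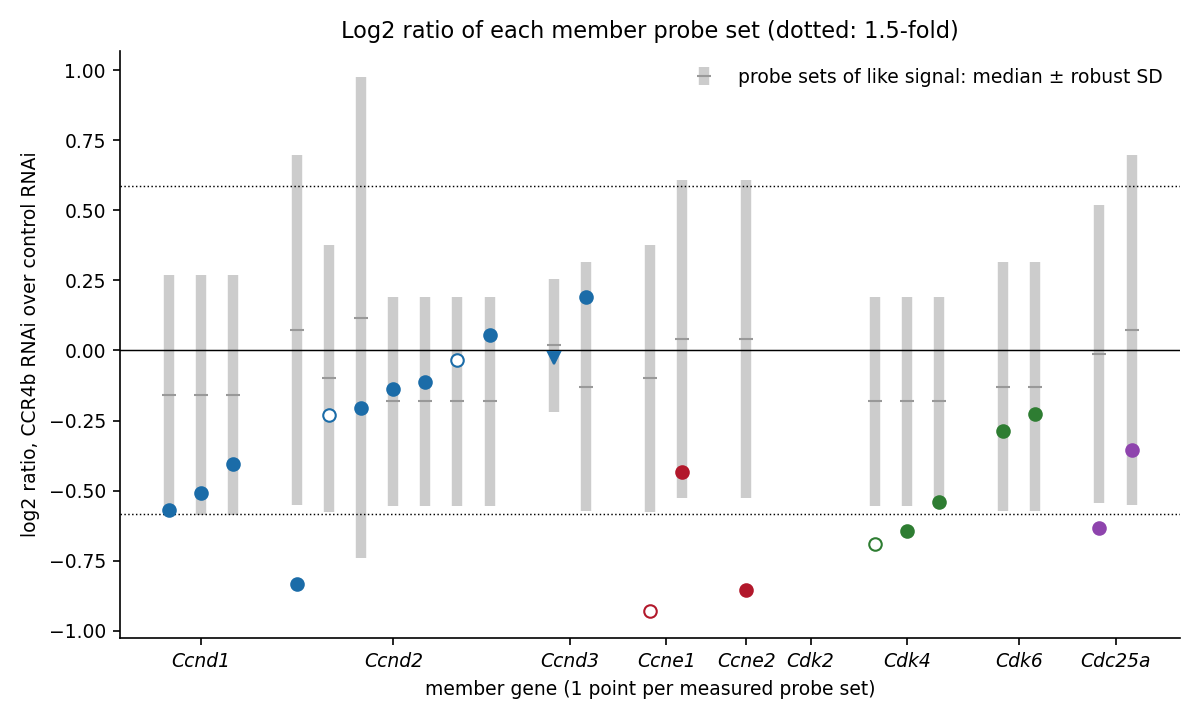
Log2 ratio of CCR4b RNAi over control RNAi (vertical axis) for the 22 measured member probe sets, grouped by gene. Open circles may bind other transcripts, the triangle is a bound, and grey bars give the median ± robust SD of probe sets of like signal. Of the 22 points, 6 lie below their grey bar and 0 above it, and the matching share of all probe sets was not computed.

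Counted over all members, 17 of 22 probe sets had a ratio under the median of their signal class, which by definition splits the class evenly. The distance was larger than the class robust SD for 6 of them and 0 lay above by as much. The 6 were 1 probe set of Ccnd2, 1 of Ccne1, that of Ccne2, 2 of Cdk4 and 1 of Cdc25a. The share of all probe sets so far from their class median was not computed, so these counts have no background.

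Genes that act on the same step were read from lists named by role, with the shares of all genes above (14.6% at least 1.5-fold lower, 11.3% as much higher) as the background. The CDK inhibitors did not move together. Of 5 measured, 1 was higher and 0 were lower by at least 1.5-fold, and their median log2 ratio was 0.11, which took values from -0.076 to 0.30 over the alternatives. Cdkn1a, which encodes p21, an inhibitor of cyclin E-CDK2, read 481 units in the CCR4b RNAi culture and 245 units in the control, 1.97-fold higher. The other probe set of Cdkn1a read 488 units (CCR4b RNAi) and 228 units (control RNAi), 2.14-fold higher. Cdkn2b, which encodes p15, an inhibitor of CDK4 and CDK6, was below the floor in the CCR4b RNAi culture, at 1.73 units (CCR4b RNAi) and 9.40 units (control RNAi), and counted as 1.5-fold lower with the floor at the 25th percentile and with no floor. Cdkn1b, which encodes p27, another inhibitor of cyclin E-CDK2, read 101 units (CCR4b RNAi) and 89.2 units (control RNAi), 1.13-fold higher. On its dimmer probe set it read 18.9 units (CCR4b RNAi) and 13.6 units (control RNAi), 1.39-fold higher. Of the 13 RB pocket proteins and E2F factors, 3 were lower and 2 higher by at least 1.5-fold, with a median log2 ratio of -0.30. Rb1 encodes the substrate of CDK4 and CDK6 and was 2.08-fold higher, at 28.1 units (CCR4b RNAi) and 13.5 units (control RNAi), and E2f1 had log2 ratios of -0.31 on its brightest probe set and 0.97 on the next. The 3 lower genes were E2f7 (3.04-fold), Rbl1, which encodes p107 (2.43-fold), and E2f8, which was below the floor in the CCR4b RNAi culture (at least 2.68-fold). Beside Rb1, the other higher gene was E2f6, which was below the floor in the control (at least 1.66-fold). With the floor at the 75th percentile, 35.8 units, Rb1 was not measured and 0 genes of this list were as much higher, against 2.

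The cyclins and kinases of later phases were lower by more than the G1 members. All 4 measured, Ccna2, Ccnb2, Ccnf and Cdk1, were at least 2-fold lower, with a median log2 ratio of -1.27. Ccna2, which encodes cyclin A2, read 122 units in the CCR4b RNAi culture and 325 units in the control, 2.67-fold lower. Of 15 measured E2F-driven S phase genes, 14 were at least 1.5-fold and 11 at least 2-fold lower, with a median log2 ratio of -1.16. Among them were Cdc6, a replication licensing factor (4.10-fold), Mcm5, a helicase subunit (3.78-fold), and Tk1, thymidine kinase (2.73-fold). The largest of the 8 member ratios, that of Ccne1 at -0.93, is smaller in size than both medians. By contrast, among 22 cyclins and CDKs that act outside the cell cycle, such as Ccnt1 and Cdk9 in transcription, 0 were lower and 1, the dim Cdk18, was higher by at least 1.5-fold, with a median of -0.036 (-0.14 to 0.053 over the alternatives). Cdk18 was not past it with the loess correction and was not measured with the floor at the 75th percentile. No difference between lists was tested.

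Genes that set the activity, the turnover or the transcription of G1 cyclins were counted at the same 1.5-fold. Of all genes, 14.6% were as much lower and 11.3% as much higher, and the turnover list did not exceed these shares. Among 9 kinases and phosphatases that set CDK phosphorylation, 3 were lower: Cdc25c (3.38-fold), Chek1 (2.30-fold) and Cdc25b (1.56-fold). Of 16 genes for the turnover of cyclin D, cyclin E and CDC25A, Cks1b, a cofactor of the SKP2 ubiquitin ligase (2.08-fold), and its relative Cks2 (2.13-fold) were lower. In the same list Ambra1, a receptor that sends D-type cyclins to degradation, stood 1.61-fold higher on the brightest of its probe sets, at 20.0 units (CCR4b RNAi) and 12.4 units (control RNAi), but was not past 1.5-fold on the median over its probe sets and was not measured with the floor at the 75th percentile. Fbxw7, the receptor that sends cyclin E to degradation, had log2 ratios of 0.42 and -0.32 on its probe sets. Of 9 measured transcription factors upstream of G1 cyclins, 2 were lower and 2 higher. Myc, whose product binds E-boxes, read 39.1 units in the CCR4b RNAi culture and 83.7 units in the control, 2.14-fold lower, and Fosl1, an AP-1 subunit, read 1.68-fold lower on one probe set and 1.18-fold lower on the dimmer one, and was not past 1.5-fold on their median. Egr1, an immediate early gene, was 1.99-fold higher, and Foxo3, which encodes a factor that restrains D-type cyclin genes, 1.67-fold higher. Myc has 1 probe set, and whether its level bears on that of Cdk4, whose promoter window holds 4 E-boxes, was not tested.

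**Figure D3:**
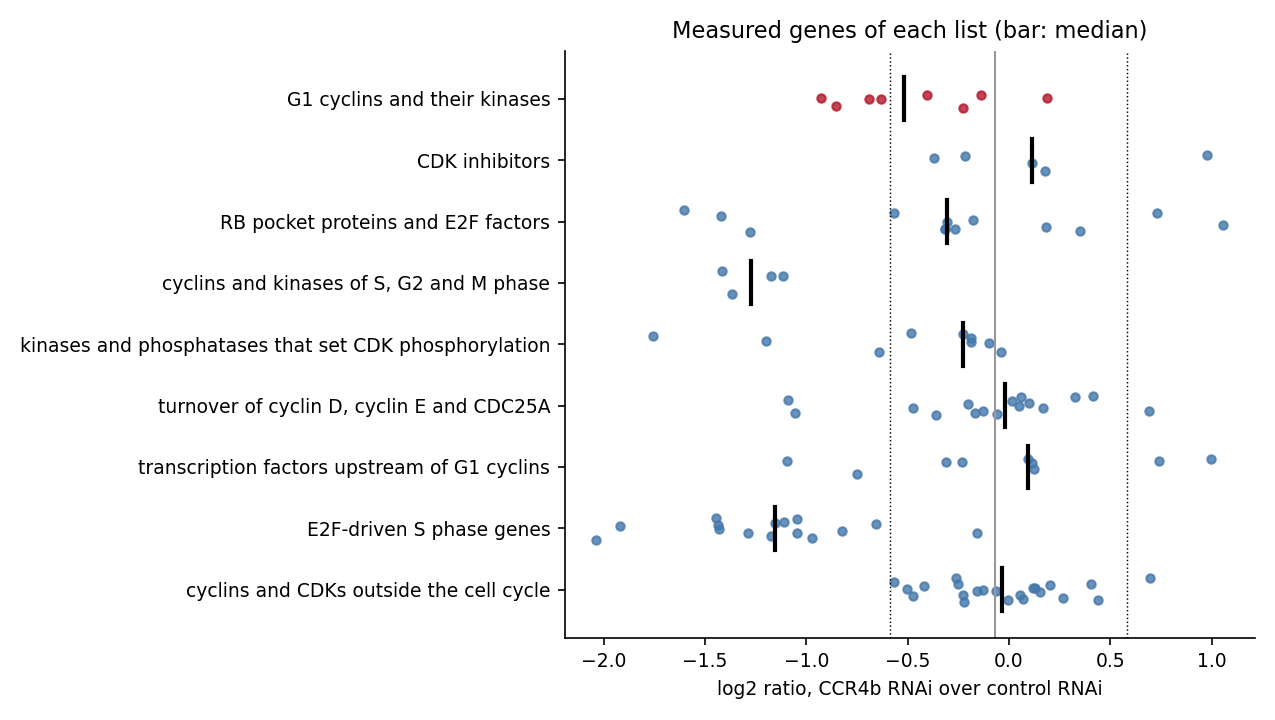
Log2 ratio of CCR4b RNAi over control RNAi (horizontal axis) for each measured gene of the G1 cyclins and their kinases (red) and of 8 related lists (blue), 1 point per gene. Black bars are medians, the grey line is the median of all measured genes (-0.070) and dotted lines mark 1.5-fold. The member median, -0.52, lies between those of the S phase list (-1.16) and of the cyclins and CDKs outside the cell cycle (-0.036).

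Which members were past 1.5-fold depended on the setting. Over the 8 alternatives Ccnd1 stayed below 0, between -0.51 and -0.24, and so did Cdk6, between -0.32 and -0.091. Ccne1 was past 1.5-fold in 7 of 8, Ccne2 in 7, Cdc25a in 6 and Cdk4 in 5 of them. Ccnd1, Ccnd2, Ccnd3 and Cdk6 were past it in 0 of the 8.

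**Figure D4:**
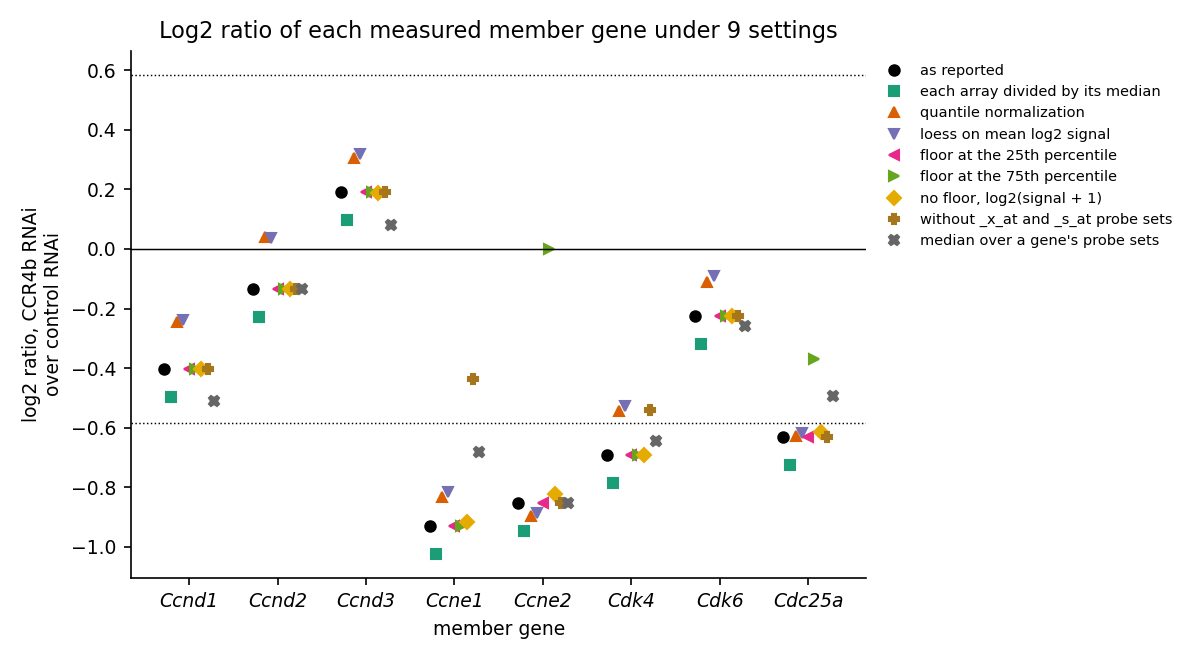
Log2 ratio of CCR4b RNAi over control RNAi (vertical axis) for each measured member gene under 9 settings, the values reported (black) and 8 alternatives. Ccnd3 stays above 0 in all of them, Ccnd2 crosses 0, and the E-type cyclins stand lowest in the values reported.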

How the data were processed

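Total RNA of 2 NIH3T3 cultures was measured on 1-colour Affymetrix Mouse Genome arrays, 1 per group, and groups came from the knockdown label. The deposited values are linear probe-set intensities, which the authors computed in GCOS with a global normalization, per the labels and the series design text. The GCOS version and the target of the normalization were not given in the sources used here. Of 45101 probe sets, 34958 had 1 gene symbol in the platform annotation, 932 had several and 9211 are unnamed here. Symbols were checked against the GRCm38.p6 RefSeq table by gene ID, and 0 changed.

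Floored log2 ratios, 10 signal classes and robust SDs (scaled median absolute deviation) were computed with pandas 2.3.3 and NumPy 2.4.6, and loess (span 0.3) with statsmodels 0.14.6. The procedure was tested on simulated data. Array number limits the precision. The members, the lists and the 1.5-fold threshold were chosen with earlier results of these data known. All member probe sets are named. Of list genes past 1.5-fold, at most 5 per list and direction could be named, with Cdkn1a, Cdkn1b, Ccna2, Cdk1, Rb1, E2f1, Myc and Fbxw7 whatever their ratio. The 8 alternatives were 2 scalings, the loess correction, floors at the 25th and 75th percentile, log2(signal + 1), leaving out _x_at and _s_at probe sets, and the median over a gene's probe sets.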

Additional observations from a re-analysis of the deposited data

How the results depend on the processing

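The count of 4 member genes at least 1.5-fold lower was 2 with the floor at the 75th percentile, where Ccne2 and Cdc25a (log2 ratio -0.37) were no longer past it, and 2 without _x_at and _s_at probe sets, where Ccne1 (-0.44) and Cdk4 (-0.54) were not. It was between 3 and 5 under the other 6 alternatives, and the fifth gene was Cdk2 with the floor at the 25th percentile. The share of all genes at least 1.5-fold lower also moved, from 14.6% as reported. It was 14.1% with the floor at the 75th percentile and 14.8% without _x_at and _s_at probe sets. With the floor at the 25th percentile it was 21.6%, and in the remaining settings 12.7% to 19%. Of the member probe sets, 3 were at least 1.5-fold lower with the floor at the 75th percentile, against 6. The count was 9 with the floor at the 25th percentile and with each array divided by its median. With the floor at the 25th percentile, 1 probe set was 1.5-fold higher, against 0. That probe set is 1460291_at of Cdk6, which read 4.81 units (CCR4b RNAi) and 0.411 units (control RNAi). The number of member probe sets measured changed with the floor. The share of all probe sets past 1.5-fold was not computed in the alternatives, so the probe-set counts there have no background. The median log2 ratio of the member genes stayed below 0 in all 8 alternatives, between -0.63 and -0.30, and the median of all genes moved by at most 0.088 in size. The member median minus that of all genes was -0.45 as reported. It was -0.57 with the floor at the 25th percentile and -0.18 with the floor at the 75th. Of 191 recomputed single member ratios, 0 past 1.5-fold changed sign and 5 moved by more than 0.30, those of Ccne1, Ccne2 and the dim Ccnd3 probe set. Of 192 recomputed list values, 11 moved. Dividing each array by its median put 2 of the cyclins and CDKs outside the cell cycle 1.5-fold lower, against 0. With the floor at the 75th percentile, 0 of the kinases and phosphatases that set CDK phosphorylation and 1 of the RB pocket proteins and E2F factors were 1.5-fold lower, against 3 each. At the higher floor all 8 genes were still measured, and values raised to it shrink a ratio by construction. The cause of the other changes was not tested. No paired analysis was possible because each group holds 1 array. For the same reason no replicate could be left out.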
